A study of Homo sapiens with 2 samples.

Results

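This account follows 10 secreted signalling and defence genes through the cells of a pool of ovarian cancer lines: the chemokines CXCL14, CXCL1, CXCL8, CCL2 and CCL20, the cytokines IL6 and IL18, the growth factor midkine (MDK), the antimicrobial peptide gene DEFB1 and the cytokine MIF. The genes were taken by symbol from the authors' transcript annotation, and all 10 were found among its 57110 gene entries, of which 17806 had a count. They are listed there with 34 transcripts. MIF has no entry of its own and is joined with SLC2A11 and AP000350.4, so its gene value is that of the joined entry.

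The study sequenced 1 pool of the established human ovarian cancer lines IGROV1, SK-OV-3 and COV504, trypsinized and mixed in equal parts, to benchmark transcript quantification from long reads. The same pool gave 1 Illumina library and 1 nanopore PromethION library, which reads whole cDNA molecules. All values here are from the PromethION library. No line received a treatment per the labels, and no label ties a cell to a line.

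Chemokines are small secreted proteins that guide leukocytes along gradients. CXCL1 and CXCL8 act through CXCR2 and draw neutrophils, CCL2 acts through CCR2 and draws monocytes, and CCL20 acts through CCR6. CXCL1, CXCL8, CCL2, CCL20 and IL6 are classic targets of NF-kB, a transcription factor that inflammatory signals release from its inhibitors, and ovarian tumour cells are known to secrete several of them. IL18 is made as a precursor that inflammasome caspases cut, midkine is a heparin-binding growth factor, MIF is a constitutively stored cytokine that binds CD74, and DEFB1 encodes the beta-defensin that epithelia make without stimulation.

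Cells were placed in lines by marker genes that are not members. A barcode with at least 1000 counts was placed where ERBB2, NNMT, TSPAN1 and DHRS2, or RARRES2 and TMEM100, or FOLR1 and CLDN3 held at least 75% of the counts of these 8 genes. This gave 650 ERBB2-high, 489 RARRES2-high and 731 FOLR1-high cells, with median depths of 4950.5, 6299 and 5327 counts. A further 259 barcodes fell in no line and 333 had fewer than 1000 counts. The ERBB2-high cells also led in GRB7, MIEN1, STARD3 and PGAP3, neighbours of ERBB2, and are SK-OV-3-like by these markers (GRB7 at 56.3, 2.58 and 28.6 CPM in ERBB2-high, RARRES2-high and FOLR1-high cells). CDKN2A, fixed as a gene at 0 in SK-OV-3, had 1, 0 and 88 counts and so did not tell the first 2 lines apart. The other lines keep the names of their marker genes. Keratins were present in every line (KRT18 at 552, 4797 and 1142 CPM in the order above), while PTPRC, which marks leukocytes, had 0, 1 and 1 counts. Of 10 leukocyte markers, CD68 was the one with more than 5 counts in a line (549, 746 and 1137 CPM). The ribosomal protein share of counts differed between lines, with medians of 11.9%, 14.8% and 26.7%, and the mitochondrial share was 2.82%, 3.04% and 7.13%; their part in the differences below was not tested. The placement rested on few counts in many cells: 104, 82 and 349 of them had fewer than 5 marker counts.

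Each level below is a sum of counts over the cells of a line, as CPM, the counts scaled to the same total in each line, with an exact 95% Poisson interval. A share of cells has a Clopper-Pearson interval at the same level. With 1 library there is no replicate and no test, these intervals cover counting error only, and fewer cells with a gene cannot be told apart from less RNA per cell in a summed level. A member is called higher in a line where the CPM ratio reached 4, with counts under 3 set to 3. At this limit 8 of the 10 members could be read, since CCL20 and IL6 had fewer than 50 counts over the 3 lines. CCL2 and DEFB1 reached 50 counts through a single line, so they had to differ. Where a line held 0 counts, the limit given is the level or share of 3 counts, and a ratio against it is taken over that floor, beside the lower bound of its counting interval. Free RNA can give counts in cells that do not make a gene. In the line where each was lowest, CXCL14, CXCL1, CXCL8, CCL2 and DEFB1 were counted in 0 to 0.547% of the cells.

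The members differed between the lines. CXCL14 and DEFB1 were highest in FOLR1-high cells, CCL2, CXCL8, MDK, IL6 and CCL20 in RARRES2-high cells, and MIF in ERBB2-high cells, while CXCL1 was shared by ERBB2-high and RARRES2-high cells and IL18 was present in all. Between ERBB2-high and RARRES2-high cells, 0 of 8 members were called higher in the ERBB2-high line, against a background of 6.52% of all 10204 gene entries, and 3 (CXCL14, CCL2 and MDK) in the RARRES2-high line, against 5.07%. Between ERBB2-high and FOLR1-high cells, 2 members (CXCL1 and CXCL8) were called higher in the ERBB2-high line, against 9.06%, and 3 (CXCL14, MDK and DEFB1) in the FOLR1-high line, against 3.56%. Between RARRES2-high and FOLR1-high cells, 3 (CXCL1, CXCL8 and CCL2) were called higher in the RARRES2-high line, against 9.55%, and 2 (CXCL14 and DEFB1) in the FOLR1-high line, against 5.22%. With 10 CPM added to both lines before the ratio, the calls of CXCL14 in RARRES2-high over ERBB2-high cells (2.58) and of CXCL8 in ERBB2-high over FOLR1-high cells (3.72) were lost. With a marker share of 60%, CXCL14 stood at 19.9 and 6.55 CPM in RARRES2-high and ERBB2-high cells, so that call was lost there too. With so few members these counts describe them and say nothing of secreted genes at large. In the order ERBB2-high over RARRES2-high, the median log2 ratio was -0.42 over the members and 0.22 over all entries. It was -0.05 and 0.46 for ERBB2-high over FOLR1-high cells, and 0.11 and 0.20 for RARRES2-high over FOLR1-high cells.

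**Figure D1:**
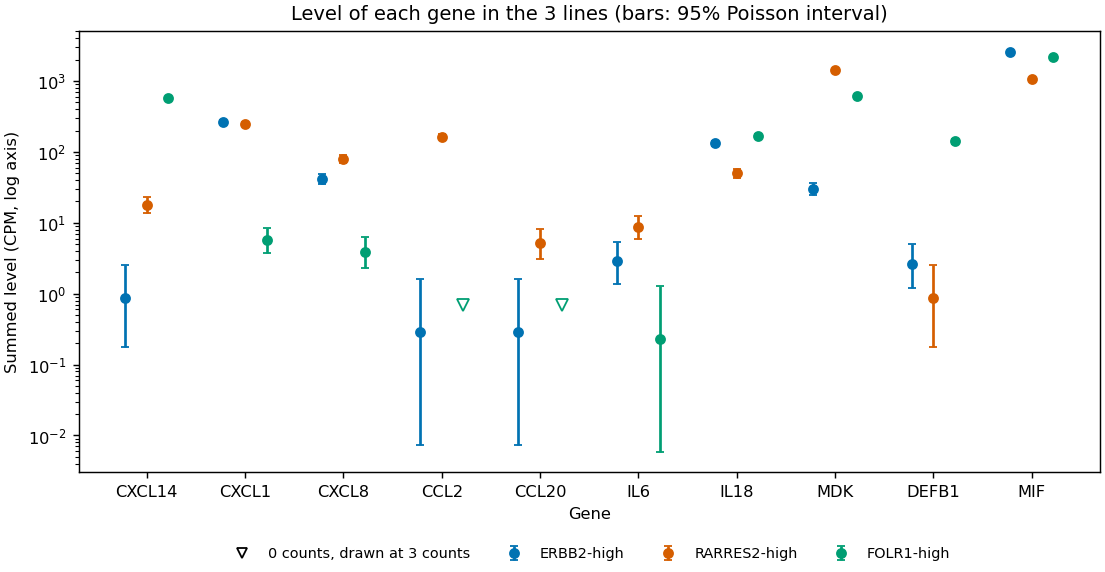
Summed level of each gene (CPM, log axis) in ERBB2-high, RARRES2-high and FOLR1-high cells; points are sums over cells, bars are 95% Poisson intervals and open triangles mark 0 counts drawn at the level of 3 counts. CXCL14 and DEFB1 stand highest in FOLR1-high cells (574 and 141 CPM), CCL2 in RARRES2-high cells (164 CPM), and MIF lies above 1000 CPM in each line.

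CXCL1 and CXCL8, neutrophil-drawing chemokines, lie on chromosome 4 in the same orientation (CXCL1, ENSG00000163739, 73869404 to 73871242; CXCL8, ENSG00000169429, 73740506 to 73743716; GRCh38). Because their counts moved together over cells, as given below, the sequences before their starts are shown, on the plus strand of GRCh38.p14 from RefSeq. The CXCL1 stretch ends at its RefSeq start, while that of CXCL8 ends at its GENCODE start, upstream of the RefSeq start from which positions are counted. Capitals mark GGAATTTCC, a letter string of the kind NF-kB binds that was picked after these sequences were read, and TGACTCA, a match to the AP-1 string TGANTCA.

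CXCL1, chr4:73869143-73869392: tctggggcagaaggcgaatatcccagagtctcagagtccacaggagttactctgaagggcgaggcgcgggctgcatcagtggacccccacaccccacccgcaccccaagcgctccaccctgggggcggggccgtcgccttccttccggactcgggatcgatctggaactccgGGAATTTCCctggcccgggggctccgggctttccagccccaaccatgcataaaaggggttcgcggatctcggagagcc
CXCL8, chr4:73740319-73740505: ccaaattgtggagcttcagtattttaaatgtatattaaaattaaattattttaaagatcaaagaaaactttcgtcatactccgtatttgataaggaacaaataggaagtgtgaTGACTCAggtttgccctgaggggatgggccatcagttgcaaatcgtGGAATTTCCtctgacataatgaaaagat

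The string GGAATTTCC starts 78 bases before the RefSeq start of CXCL1 and 91 bases before that of CXCL8. It was found on either strand in 162 of 35116 RefSeq promoter windows of 300 bases (0.461%). Of the 10 members, 6 had a window in that table and were searched, namely CXCL14, CXCL1, CXCL8, CCL20, IL6 and MIF. The wider NF-kB consensus, searched by its usual degenerate form and overlapping the first string in CXCL1, matched in CXCL1, CCL20 and IL6 and in 11.3% of all windows. TGANTCA matched in CXCL8 and CXCL14 and in 7.71% of windows, and TATAAA matched in CXCL8, past the end of the printed stretch, and in CCL20, and in 11.5%. These matches describe letters in the windows and were not tested as binding sites.

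CXCL1 had 905 counts in ERBB2-high cells (263 CPM, 246 to 280), 858 in RARRES2-high cells (246 CPM, 230 to 263) and 25 in FOLR1-high cells (5.76 CPM, 3.73 to 8.51). The first 2 lines could not be separated at the marker share of 75%, with a ratio of 1.07 (0.969 to 1.17), and the FOLR1-high line lay far below both. With 90% required their levels were 276 and 201 CPM, so ERBB2-high cells then stood higher. CXCL1 was counted in 36.5% of ERBB2-high cells (32.8 to 40.3%), in 41.7% of RARRES2-high cells (37.3 to 46.2%) and in 0.547% of FOLR1-high cells (0.149 to 1.40%). Of the 25 counts in the FOLR1-high line, 22 lay in a single cell, and without that cell the level was 0.692 CPM. The ratio of ERBB2-high to FOLR1-high cells was 45.6 (30.7 to 70.8) with that cell included.

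CXCL8 had 144 counts in ERBB2-high cells (41.8 CPM, 35.2 to 49.2), 277 in RARRES2-high cells (79.5 CPM, 70.5 to 89.5) and 17 in FOLR1-high cells (3.92 CPM, 2.28 to 6.27). RARRES2-high cells were above ERBB2-high cells by 1.90 times (1.55 to 2.35), under the limit of 4. With 90% of the marker counts required to place a cell the levels were 51.4 and 43.1 CPM, so the lines then lay closer together. The share of cells differed more than the level: 18.8% of RARRES2-high cells (15.5 to 22.6%) had CXCL8 against 5.54% of ERBB2-high cells (3.91 to 7.59%) and 0.410% of FOLR1-high cells. In the ERBB2-high line 43 of the 144 counts came from 1 cell, which also held 62 CXCL1 counts, and without it the level was 29.4 CPM. The FOLR1-high cell that carried the line's CXCL1 also carried 12 of its 17 CXCL8 counts, and its markers were 9 counts of the FOLR1 pair, 1 of the RARRES2 pair and 1 of the ERBB2 set.

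Over cells, CXCL8 was counted mainly where CXCL1 was. After each cell was thinned to 2000 counts, 16 ERBB2-high cells had both genes, 128 CXCL1 only, 2 CXCL8 only and 461 neither. CXCL8 was thus present in 11.1% of the cells with CXCL1 (6.49 to 17.4%) and in 0.432% of those without (0.0524 to 1.55%). In RARRES2-high cells the same shares were 19.4% (12.8 to 27.4%) and 6.29% (3.93 to 9.45%), so more RARRES2-high cells had CXCL8 alone (21 cells against 24 with both). The Pearson correlation of log2 levels over cells was 0.42 in the 650 ERBB2-high and 0.37 in the 489 RARRES2-high cells, the points sharing 1 library and a varying depth. CXCL1 itself had a correlation of 0.13 and 0.09 with log2 depth in these lines.

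CCL2, the monocyte chemokine (ENSG00000108691, chromosome 17, 34255285 to 34257203, plus strand), was counted almost entirely in 1 of the 3 lines. It had 571 counts in RARRES2-high cells (164 CPM, 151 to 178), 1 in ERBB2-high cells (0.290 CPM, 0.00735 to 1.62) and 0 in FOLR1-high cells, where 3 counts would be 0.691 CPM. RARRES2-high cells were 565 times above ERBB2-high cells, with a counting interval from 101 to 22363 because of the single count, and at least 237-fold higher than FOLR1-high cells over the floor of 3 counts (lower counting bound 192). It was counted in 27.6% of RARRES2-high cells (23.7 to 31.8%), and in 0 of 731 FOLR1-high cells, where 3 cells would be 0.410% and the Clopper-Pearson bound is 0.503%. Within the RARRES2-high line, cells with CCL2 had a summed CXCL1 level of 436 CPM against 167 CPM in cells without, at median depths of 6680 and 6180 counts. At equal depth the overlap was smaller: 16.9% of cells with CXCL1 (10.8 to 24.7%) and 15.0% of cells without (11.3 to 19.3%) had CCL2. The correlation of CCL2 with CXCL1 over these cells was 0.26.

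CCL20 and IL6 were rare in every line. CCL20, a chemokine for CCR6-bearing lymphocytes and dendritic cells (ENSG00000115009, chromosome 2, 227813842 to 227817564, plus strand), had 18 counts in 12 RARRES2-high cells (5.17 CPM, 3.06 to 8.17), 1 count in ERBB2-high cells and 0 in FOLR1-high cells. RARRES2-high cells were 7.48-fold higher than FOLR1-high cells over the floor of 3 counts (lower counting bound 5.48). Its 18 counts were split 8 and 10 between transcripts ENST00000358813 and ENST00000409189, which differ by 3 coding bases at the start of exon 2. IL6 (ENSG00000136244, chromosome 7, 22725884 to 22732002, plus strand), the pleiotropic inflammatory cytokine, had 10 counts in ERBB2-high cells (2.90 CPM, 1.39 to 5.34), 30 in RARRES2-high cells (8.62 CPM, 5.81 to 12.3) and 1 in FOLR1-high cells (0.231 CPM, 0.00584 to 1.28). RARRES2-high cells were 2.97 times above ERBB2-high cells (1.41 to 6.81). With 90% of the marker counts required the levels were 4.24 and 2.87 CPM. Where IL6 was counted, no ERBB2-high cell held more than 1 count and no RARRES2-high cell more than 3.

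CXCL14, a chemokine made by epithelia without stimulation (ENSG00000145824, chromosome 5, 135570679 to 135579279, minus strand), had 2491 counts in FOLR1-high cells (574 CPM, 552 to 597), 63 in RARRES2-high cells (18.1 CPM, 13.9 to 23.2) and 3 in ERBB2-high cells (0.870 CPM, 0.180 to 2.54). FOLR1-high cells were 31.7 times above RARRES2-high cells (24.7 to 41.4) and 660 times above ERBB2-high cells, with a counting interval from 225 to 3201. The 3 ERBB2-high counts came from a single cell. Within the FOLR1-high line CXCL14 was counted in a minority of cells: 240 of 731 cells (32.8%, 29.4 to 36.4%) had it, the median among these was 7 counts, the maximum was 69, and the 74 cells with the most counts held 68.4% of the counts. Its transcripts ENST00000512158 and ENST00000337225 differ in where they start, and in 231 of the 240 cells their counts were split evenly (equal within 1e-06), so their shares cannot be read.

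DEFB1 (ENSG00000164825, chromosome 8, 6870575 to 6878022, minus strand) had 610 counts in FOLR1-high cells (141 CPM, 130 to 152), 9 in ERBB2-high cells (2.61 CPM, 1.19 to 4.96) and 3 in RARRES2-high cells (0.862 CPM, 0.178 to 2.52). FOLR1-high cells were 53.8 times above ERBB2-high cells (28.2 to 118) and 163 times above RARRES2-high cells (55.6 to 794). Of the 9 ERBB2-high counts 6 lay in 1 cell. DEFB1 was found in 25.3% of FOLR1-high cells (22.2 to 28.6%), against 0.462% of ERBB2-high and 0.409% of RARRES2-high cells.

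The FOLR1-high line held cells with CXCL14 and cells with DEFB1, and few with both. An earlier clustering of these same cells had put each gene at the head of a different cluster, so the separation is a description of known groups. At 2000 counts per cell, 188 cells had CXCL14 only, 105 DEFB1 only, 2 both and 405 neither. DEFB1 was counted in 1.05% of the cells with CXCL14 (0.128 to 3.75%) and in 20.6% of those without (17.2 to 24.4%). Without thinning, 11 cells had both.

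MDK and IL18 followed this division on opposite sides. Cells of the FOLR1-high line with CXCL14 had 1060 CPM of MDK, 41.4 of IL18 and 26.3 of DEFB1, while cells without had 410, 225 and 191 CPM. The 240 and 491 cells had similar median depths (5018 and 5539 counts) and a ribosomal protein share of 29.7% against 25.4%, whose part in the difference was not tested. At equal depth MDK was present in 83.2% of cells with CXCL14 (77.1 to 88.2%) against 38.0% of cells without (33.8 to 42.4%). IL18 was present in 44.9% of cells with DEFB1 (35.2 to 54.8%) against 17.9% of cells without (14.9 to 21.2%), and in 4.21% of cells with CXCL14 (1.84 to 8.13%).

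**Figure D2:**
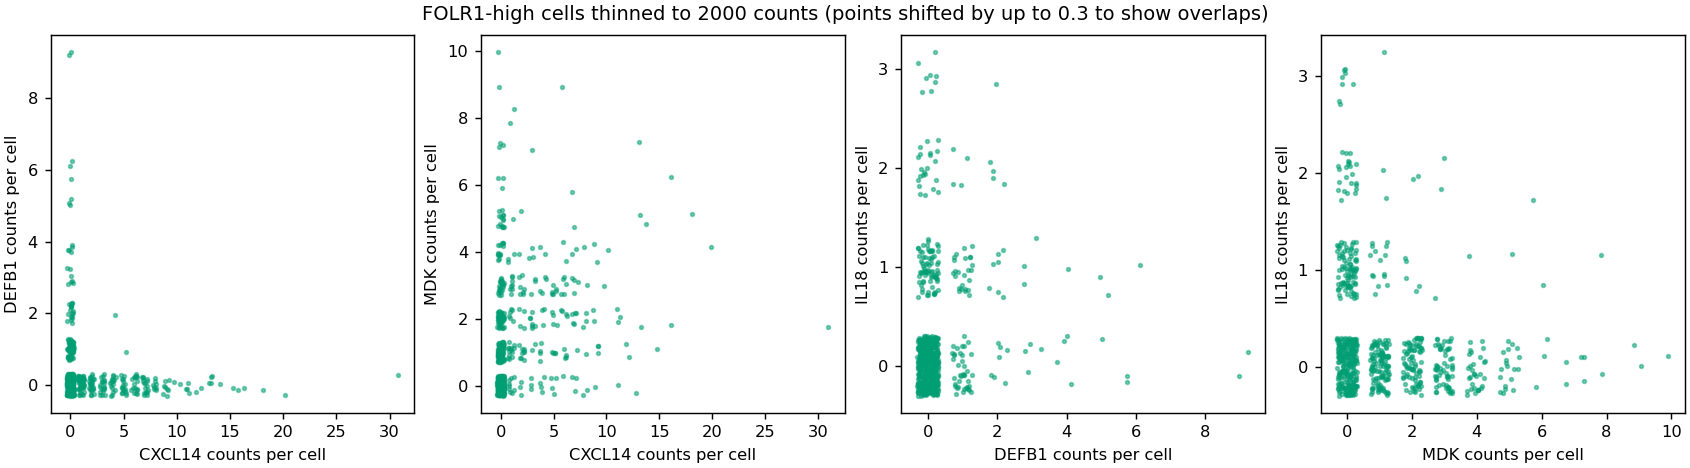
Counts per cell of 4 pairs of genes (axes: counts after thinning to 2000) in 700 FOLR1-high cells; each point is a cell. Cells lie along either axis for CXCL14 and DEFB1, with 2 cells off both axes, whereas 158 cells have both CXCL14 and MDK.

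Over the 731 FOLR1-high cells CXCL14 had a correlation of 0.47 with MDK, -0.42 with IL18 and -0.30 with DEFB1. IL18 had a correlation of 0.32 with DEFB1 and -0.47 with MDK. These points share 1 library, and the correlation with the ribosomal protein share was 0.45 for CXCL14, 0.35 for MDK and -0.22 for IL18. By the rule set for likeness (log2 of CPM + 100, genes with a count in at least 20% of the cells), the genes most like CXCL14 were IGFBP3, which binds insulin-like growth factors (0.54), TPM1, a tropomyosin (0.53), and NELL2 (0.52), followed by MDK and RPL24. Those least like it were the joined entry of FXYD2, FXYD6-FXYD2 and FXYD6, TMSB4X and TIMP1, each at -0.55. MDK had the same gene at its head (IGFBP3, 0.54, then CXCL14, MPC1, LIMCH1 and RPSA) and the FXYD2 entry at its foot (-0.68), followed by SPP1 (-0.64) and CD24 (-0.59). IL18 and DEFB1 had fewer than the 1000 counts the rule asked for. Their lists, made afterwards, were both headed by the FXYD2 entry, at 0.61 for IL18 and 0.49 for DEFB1.

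**Figure D3:**
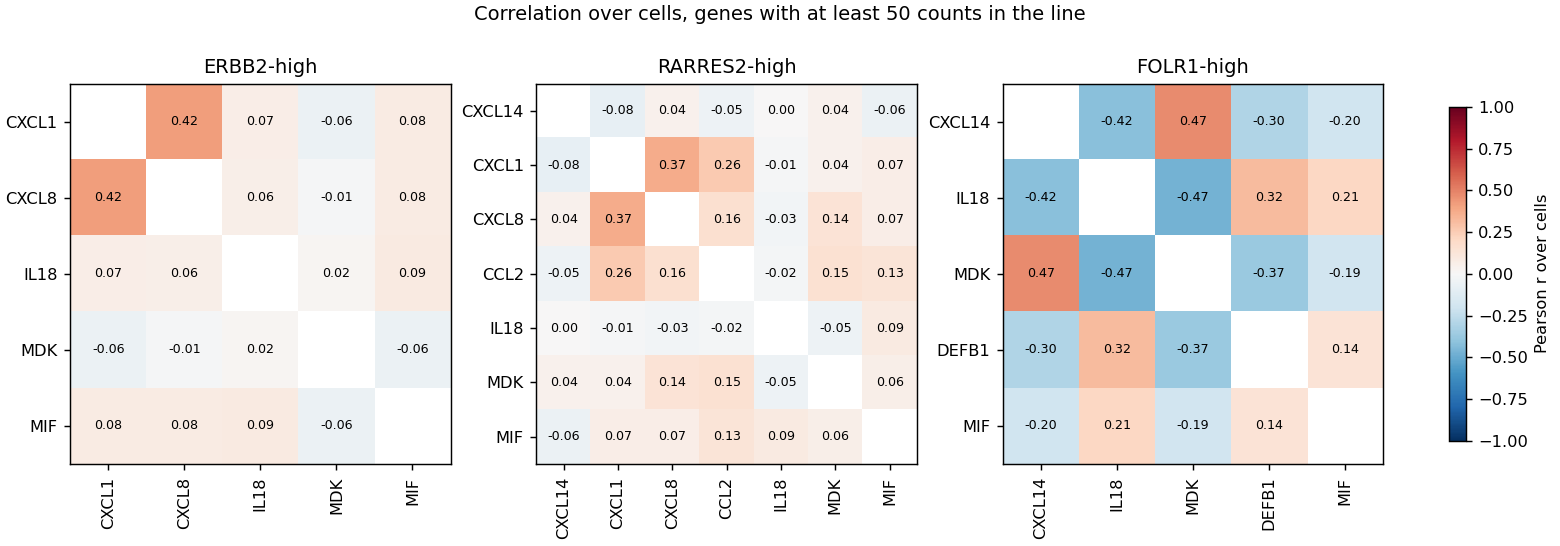
Pearson correlation over cells (log2 of CPM + 100) between members with at least 50 counts in a line; color runs from -1 to 1. The largest positive value joins CXCL14 and MDK in FOLR1-high cells (0.47), and CXCL1 with CXCL8 is the largest in the other lines (0.42 and 0.37).

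IL18, a cytokine that induces interferon gamma (ENSG00000150782, chromosome 11, 112143251 to 112164117, minus strand), was the most evenly shared of the members after MIF. It had 455 counts in ERBB2-high cells (132 CPM, 120 to 145), 174 in RARRES2-high cells (49.97 CPM, 42.8 to 58.0) and 731 in FOLR1-high cells (168 CPM, 157 to 181). FOLR1-high cells were 1.28 times above ERBB2-high cells (1.13 to 1.44) and 3.37 times above RARRES2-high cells (2.85 to 4.001), so no pair reached the limit of 4. About equal shares of ERBB2-high (41.2%) and FOLR1-high (40.9%) cells had a count, and the means per cell at equal depth were close (0.283 and 0.289 counts at 2000 counts per cell).

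IL18 is listed with transcripts that keep or skip a coding exon of 12 bases, exon 3 of ENST00000280357 (chromosome 11, 112153592 to 112153603). The joined exon ends are shown because long reads tell these forms apart, with exon 3 in capitals, in the sense of the gene and from GENCODE release 29.

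ENST00000280357: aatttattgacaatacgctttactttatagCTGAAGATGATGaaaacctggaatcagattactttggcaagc
ENST00000524595: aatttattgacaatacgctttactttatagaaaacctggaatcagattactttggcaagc

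ENST00000280357, the main form with exon 3, held 93.2% of the IL18 counts in ERBB2-high cells (90.5 to 95.3%), 93.6% in RARRES2-high cells (89.0 to 96.8%) and 97.5% in FOLR1-high cells (96.1 to 98.5%). ENST00000524595, without it, held 6.58%, 6.36% and 2.38%. From matrix entries with whole values, which can still hold evenly split counts, its shares were 5.25% (3.14 to 8.17%), 2.65% (0.726 to 6.64%) and 1.04% (0.339 to 2.41%), which leaves ERBB2-high cells above FOLR1-high cells on either reading. The largest difference, 4.29 points, was far under the 20 points used as a limit.

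MDK (ENSG00000110492, chromosome 11, 46380756 to 46383837, plus strand) had 5019 counts in RARRES2-high cells (1441 CPM, 1402 to 1482), 2644 in FOLR1-high cells (609 CPM, 586 to 633) and 104 in ERBB2-high cells (30.2 CPM, 24.7 to 36.6). RARRES2-high cells were 2.37 times above FOLR1-high cells (2.26 to 2.48) and 47.8 times above ERBB2-high cells (39.3 to 58.6). It was counted in 96.5% of RARRES2-high cells (94.5 to 98.0%), in 67.2% of FOLR1-high cells (63.6 to 70.6%) and in 10.9% of ERBB2-high cells (8.63 to 13.6%). The 333 barcodes under 1000 counts, with a median of 264, held MDK at 869 CPM, and the part of free RNA in the ERBB2-high counts was not tested. Within the RARRES2-high line it was nearly universal and had no gene past a correlation of 0.3, unlike in the FOLR1-high line, where it split with CXCL14.

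MDK was the single member whose transcript shares differed by at least 20 points between lines. Of the members with an entry of their own, several transcripts and 50 counts in both lines, 1 of 3 passed between ERBB2-high and RARRES2-high cells (28.6 points), against 2.45% of the 4280 genes compared, and 1 of 2 between ERBB2-high and FOLR1-high cells (41.7 points), against 2.31%. Between RARRES2-high and FOLR1-high cells 0 passed, against 3.48%, MDK differing by 13.2 points and IL18 by 3.99 points, while the CXCL14 shares cannot be read. The leading transcript, ENST00000395566, held 49.9% of the MDK counts in ERBB2-high cells (40.0 to 59.97%), 78.5% in RARRES2-high cells (77.3 to 79.6%) and 91.6% in FOLR1-high cells (90.5 to 92.7%).

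The shares moved to different transcripts in the other lines. In ERBB2-high cells ENST00000405308 held 33.4% (24.7 to 43.6%), against 4.83% in RARRES2-high cells (4.26 to 5.47%) and 2.45% in FOLR1-high cells (1.90 to 3.12%). This transcript starts upstream, with a noncoding first exon at 46380756 to 46381183, and joins the same coding exons as the leading one, whose noncoding first exon is at 46381676 to 46381758. In RARRES2-high cells ENST00000407067, whose first exon (46381753 to 46382133) runs on into the first coding exon, held 12.1% (11.2 to 13.05%), against 3.85% in FOLR1-high cells (3.16 to 4.66%). From matrix entries with whole values the share of ENST00000405308 was 37.5% (27 of 72), 4.91% (34 of 692) and 1.96% (13 of 662) in ERBB2-high, RARRES2-high and FOLR1-high cells.

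**Figure D4:**
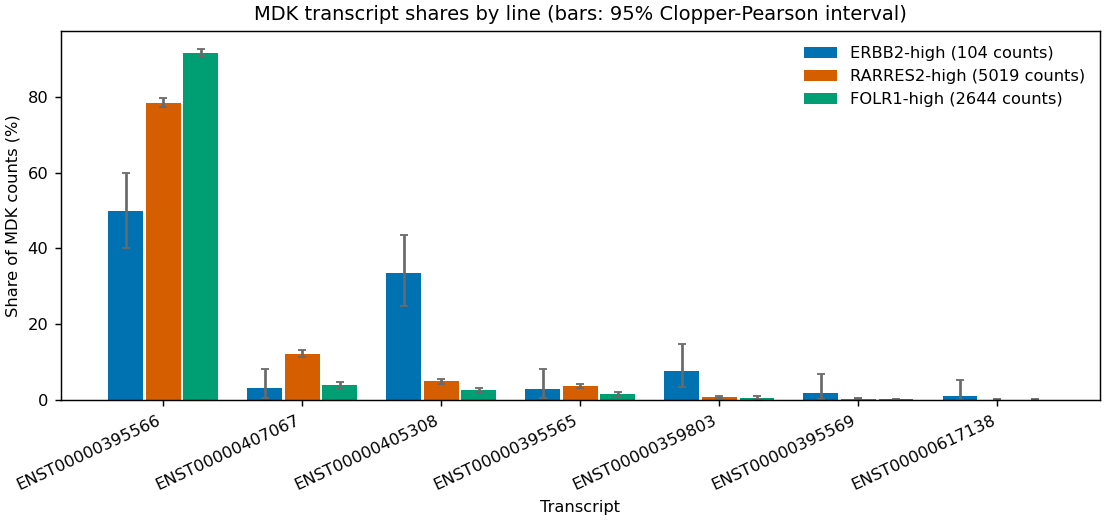
Share of MDK counts (%) held by each listed transcript in ERBB2-high (104 counts), RARRES2-high (5019) and FOLR1-high cells (2644), with 95% Clopper-Pearson intervals. ENST00000395566 leads in each line, and ENST00000405308 stands at 33.4% in ERBB2-high cells against 4.83% and 2.45% in the other lines.

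The MIF entry (MIF itself ENSG00000240972, chromosome 22, 23894004 to 23895226, plus strand) was the one found in nearly every cell. It had 8865 counts in ERBB2-high cells (2572 CPM, 2519 to 2626), 3731 in RARRES2-high cells (1071 CPM, 1037 to 1106) and 9383 in FOLR1-high cells (2162 CPM, 2119 to 2207), and was counted in 99.8%, 97.1% and 99.3% of the cells. The MIF transcript ENST00000215754 held at least 99.8% of the entry in each line. ERBB2-high cells were 2.40 times above RARRES2-high cells (2.31 to 2.50), under the limit of 4. The genes most like it in FOLR1-high cells were TMSB10 (0.35), GAPDH (0.34), PFN1 (0.31), RPL8 (0.30) and ALDOA (0.30), with MALAT1 lowest (-0.30), and ALDOA (0.31) was also the one gene past the limit in ERBB2-high cells.

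The members also differed in how unevenly cells carried them. After thinning to 2000 counts, the variance of counts over cells divided by the mean was 7.61 for CXCL8 in ERBB2-high cells, rank 4 of the 3824 genes with at least 50 thinned counts there, and 3.66 for CXCL1 (rank 23), against a median of 1.04 over all. This CXCL8 value rests on 60 thinned counts in 18 of 607 cells. One cell held 43 of the 144 CXCL8 counts before thinning, and the ratio without that cell was not computed. In RARRES2-high cells the variance to mean ratio was 3.84 for CCL2 (rank 21 of 2744), 2.82 for CXCL1, 2.09 for CXCL8 and 1.77 for MDK, against a median of 1.07. In FOLR1-high cells it was 7.14 for CXCL14 (rank 4 of 3331), 2.91 for DEFB1 and 2.25 for MDK, against 1.04. The ratio rises with the mean, and MDK lay within the range of genes of like mean, whose 95th percentile was 2.31 in FOLR1-high and 3.14 in RARRES2-high cells. IL18 was near the rest, at 1.22 in ERBB2-high and 1.28 in FOLR1-high cells, where MIF stood at 1.57 and 1.58. The chemokines were counted in a minority of the cells of each line. Before thinning, the 65 ERBB2-high cells with the most counts of a gene held 65.9% of CXCL1 and 22.7% of MIF. Among RARRES2-high cells, 49 held 65.9% of CXCL1 and 78.8% of CCL2. Such a share also depends on the number of counts. The 65 ERBB2-high cells held 45.5% of IL18, from 455 counts, and 94.2% of MDK, from 104. By itself it therefore does not show that a gene is restricted to few cells.

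**Figure D5:**
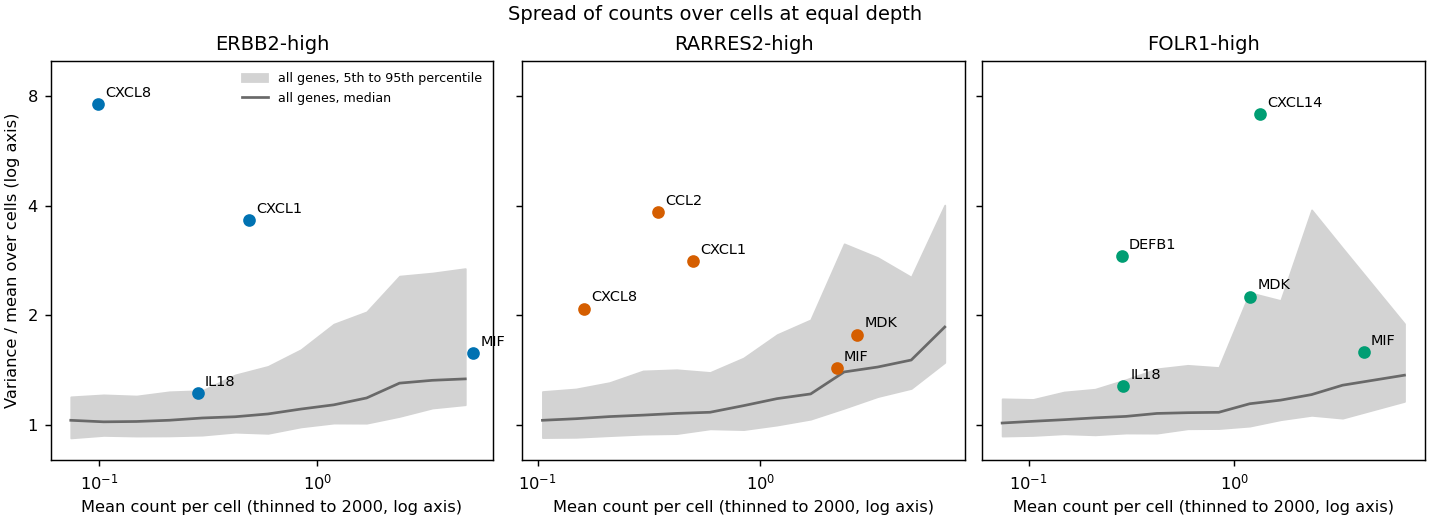
Variance divided by mean of counts over cells (log axis) against mean count per cell (log axis) after thinning to 2000 counts, for members with at least 50 thinned counts; the gray band holds the 5th to 95th percentile of all genes of like mean. CXCL8 (7.61) and CXCL1 (3.66) in ERBB2-high, CCL2 (3.84) in RARRES2-high and CXCL14 (7.14) in FOLR1-high cells stand above the band. The CXCL8 value in ERBB2-high cells rests on 60 thinned counts in 18 cells.

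Related genes were read from fixed lists. Of 14 other chemokines 6 could be read. Of these, 5 were called higher in RARRES2-high than in ERBB2-high cells, against 5.07% of all entries, and 4 higher there than in FOLR1-high cells, against 9.55%. CXCL5, CXCL6, CXCL10 and CCL5 would not have reached 50 counts without RARRES2-high cells and so had to differ. CXCL16 also needed RARRES2-high cells to reach 50 counts, but was not called there over FOLR1-high cells (13.2 against 5.3 CPM). CXCL6, a neutrophil chemokine, had 1, 184 and 1 counts in ERBB2-high, RARRES2-high and FOLR1-high cells, CCL5 had 0, 120 and 0, and CXCL5 had 0, 74 and 2. CXCL10 (0, 60 and 0) and CXCL16 (5, 46 and 23) were the remaining calls, named after their values were seen. CCL28, the other readable gene, had 44, 34 and 16 counts. CXCL6 was also the gene most like CCL2 (0.39) and CXCL1 (0.38) over RARRES2-high cells, in lists made outside the rule because these members had fewer than 1000 counts.

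The receptors of these ligands were little counted. CXCR1, CXCR2, CXCR3, CXCR6 and CCR2, named after their values were seen, had 0 counts in each line, for which 3 counts give limits of 0.870, 0.862 and 0.691 CPM, and CCR6 lies in a joined entry and has no value. CXCR4 had 1, 23 and 96 counts in ERBB2-high, RARRES2-high and FOLR1-high cells, and CCR10 had 0, 9 and 188. Both were called higher in FOLR1-high than in ERBB2-high cells, against 3.56% of all entries, and both reached 50 counts through FOLR1-high cells alone. CXCR4 was also called higher in RARRES2-high than in ERBB2-high cells, against 5.07%. CCR10 was also called higher in FOLR1-high than in RARRES2-high cells, against 5.22%.

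The genes of the NF-kB pathway were counted in each line, and all 20 could be read. Between ERBB2-high and RARRES2-high cells 0 were called higher in the ERBB2-high line (background 6.52%) and 3 in the RARRES2-high line (5.07%), with a median log2 ratio of 0.19 against 0.22 over all entries. Between ERBB2-high and FOLR1-high cells the calls were 1 and 2 (9.06% and 3.56%), with a median of 0.79 against 0.46, and between RARRES2-high and FOLR1-high cells 1 and 1 (9.55% and 5.22%), with 0.63 against 0.20. BIRC3, an apoptosis inhibitor, had 3.48, 30.4 and 24.2 CPM in ERBB2-high, RARRES2-high and FOLR1-high cells, NFKBIZ had 11.3, 4.31 and 40.3, and the kinase RIPK1 had 27.3, 8.33 and 3.23. TNFAIP3 (2.32, 24.1 and 3.46 CPM) and CHUK (0.290, 9.48 and 4.38 CPM) were the other calls in RARRES2-high over ERBB2-high cells, named after their values were seen, and TNFAIP3 was the call in RARRES2-high over FOLR1-high cells. TNFAIP3 and CHUK would not have reached 50 counts without RARRES2-high cells, nor RIPK1 without ERBB2-high cells. These genes thus passed the count minimum only with the line where they were highest. The receptor TNFRSF1A had 152, 62.6 and 57.8 CPM, the subunit RELA 94.9, 70.9 and 33.2 and the inhibitor NFKBIA 48.2, 94.8 and 33.0, none past the limit in any pair.

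Genes acting with IL6 and IL18 were present in each line with exceptions. Of 10 readable IL-6 family genes, 1 was called higher in ERBB2-high (background 6.52%) and 1 in RARRES2-high cells (5.07%) between those lines. Between ERBB2-high and FOLR1-high cells the calls were 2 and 1 (9.06% and 3.56%), and between RARRES2-high and FOLR1-high cells 1 and 0 (9.55% and 5.22%). STAT3 had 149, 46.2 and 85.7 CPM and IL6ST, the shared signalling receptor, 117, 76.7 and 30.7 CPM in ERBB2-high, RARRES2-high and FOLR1-high cells. JAK1, a kinase at that receptor, had 90.5, 49.4 and 2.54 CPM, and was called higher in both other lines than in FOLR1-high cells. IL6R was called higher in ERBB2-high cells (13.6 CPM) than in the others (3.16 and 2.54), and SOCS3, a feedback inhibitor, lower there (3.77 against 16.9 and 23.5). IL6R had 47, 11 and 11 counts and would not have reached 50 without ERBB2-high cells, the line where it was highest. Of 5 readable IL-1 family genes, PYCARD, the inflammasome adaptor, had 1, 566 and 2 counts, CASP4 had 23.5, 5.17 and 36.4 CPM, and CASP1, named after its values were seen, had 0 counts in each line.

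Among the partners of MDK, 10 of 13 genes could be read. Between ERBB2-high and RARRES2-high cells 1 and 2 were called higher (background 6.52% and 5.07%), between ERBB2-high and FOLR1-high cells 3 and 2 (9.06% and 3.56%), and between RARRES2-high and FOLR1-high cells 3 and 0 (9.55% and 5.22%). PTN, the other member of the midkine family, had 10, 511 and 1 counts in ERBB2-high, RARRES2-high and FOLR1-high cells. Like PYCARD and CD74, PTN reached 50 counts through RARRES2-high cells alone, so these genes had to differ. ITGA4, named after its values were seen, was the other call in RARRES2-high over ERBB2-high cells. It had 4, 64 and 21 counts and also would not have reached 50 without RARRES2-high cells. NCL, a surface and nucleolar binding protein, had 955, 941 and 802 CPM, and SDC1, a heparan sulfate proteoglycan, had 127, 14.9 and 7.37. Among the partners of MIF, the receptor CD74 had 1, 119 and 2 counts, and DDT, the MIF homologue, had 284, 273 and 692 CPM. Of 3 readable antimicrobial genes, none was highest in the FOLR1-high line, where DEFB1 was: SLPI had 1831, 402 and 87.8 CPM, LCN2 had 19.4, 235 and 5.99, and WFDC2 had 8.41, 69.5 and 8.53.

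The limit of 75% on the line markers bore on some members. Among barcodes led by the ERBB2 set, MDK stood at 239 CPM in the 28 with 65 to 75% of the marker counts and at 33.2 CPM in the 53 with 75 to 85% (141 and 17.4 CPM without the barcode with the most MDK counts in each). Among those led by the RARRES2 pair, CXCL8 stood at 270 CPM in the 51 below the limit and 113 CPM in the 136 above it, but 77 of the 110 counts below the limit lay in 1 barcode. Without the barcode with the most CXCL8 in each, the levels were 85.2 and 104 CPM, so the direction turned. Among those led by the FOLR1 pair, CXCL14 was at 566 and 588 CPM in 19 and 50 barcodes (306 and 487 CPM without the top barcode in each). With 90% required in place of 75%, CXCL8 in RARRES2-high cells was 51.4 CPM and CXCL14 there 10.6 CPM.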

How the data were processed

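The PromethION matrix holds estimated counts per transcript and barcode that the authors deposited, not normalized; the series' design text names Isosceles, a long-read transcript quantification package. The submitters' processing notes list Cell Ranger 6.0.1 and GRCh38 with no role. For the aligner, the annotation release and any collapsing of molecular identifiers, nothing is stated in these sources. Of the Illumina library the barcode list was read, which holds the same 2462 barcodes, and nothing else of it was analysed. The matrix held 13052893 counts, and no columns of samples were left unused.

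Estimated counts were summed per gene entry (whole within 1e-06 for 100% of sums) and per line with Python 3.11.15, numpy 2.4.6, scipy 1.17.1 and pandas 2.3.3. Joined entries held 6.21% of counts. Transcripts are named by the Ensembl identifier the authors paired with each. Transcript counts were rounded for intervals, and exons were taken from GENCODE release 29. Spread and overlap used cells thinned without replacement to 2000 counts, which left out 43 ERBB2-high, 31 RARRES2-high and 31 FOLR1-high cells. Doublets stayed in; Scrublet in scanpy 1.11.5 called 77 barcodes, 30 of them in lines, and they were left out as an alternative. With 1 library no test was run. The steps were tested on simulated data.

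The members, marker genes and gene lists were chosen with earlier results of these data known. From each list the text names up to 3 genes with the most counts and up to 3 past the ratio of 4 with the highest CPM; for members with at least 1000 counts in a line, the 5 genes with the highest and the 3 with the lowest correlation past 0.3 or -0.3. Alternatives changed the marker share, the barcode minimum, doublets, cell weighting, ratio and count limits, the floor, split counts and thinning.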

Additional observations from a re-analysis of the deposited data

Results flagged for a closer look

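CXCL8 stood at 113.5 CPM in the 259 barcodes placed in no line, above its level in each line (at most 79.5 CPM), and at 135.8 CPM in the 333 barcodes with fewer than 1000 counts, from 190 and 15 counts. A single barcode in no line held 77 of the 190 counts, and without it the level was 68.3 CPM. CCL20 stood at 14.94 CPM in the barcodes in no line, above the 5.17 CPM of RARRES2-high cells. Its 25 counts there came from 2 barcodes, with 15 and 10 counts. The first is the barcode with 77 CXCL8 counts, and it held 20019 counts in all, with 3 counts of the ERBB2 set, 30 of the RARRES2 pair and 11 of the FOLR1 pair. Scrublet called 37 of the barcodes in no line as doublets, and the part of doublets in these levels was not tested.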

How the results depend on the processing

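Of 480 values recomputed under the alternatives, 418 were scored as the same and 62 as moved. A level or share was scored as moved when it left its main interval. A count of members or a variance to mean ratio was scored as moved when it changed by more than 1.5 times. Changes of direction were not scored. The highest line of each member was the same in 8 of 8 settings of the line level. With a ratio of 2 in place of 4, the members past the limit were 6 between ERBB2-high and RARRES2-high cells and 8 between RARRES2-high and FOLR1-high cells (3 and 5 in the main analysis). The share of all gene entries past the limit was not computed for this or the other changed settings. The counts of members under them therefore have no background and cannot be read as a trait of the members. Thinned to 1000 counts, 0% of the cells with DEFB1 had CXCL14. With 90% of the marker counts required, CXCL1 in FOLR1-high cells was 0.257 CPM, since the cell that held most of it left the line; with 60%, MDK in ERBB2-high cells was 42.6 CPM, CCL2 there 3.55 CPM (12 counts in 2 of the 36 barcodes that joined) and CCL20 in RARRES2-high cells 10.5 CPM (25 counts in 2 of the 74 that joined). At 60%, 7 members were past the limit between ERBB2-high and FOLR1-high cells and 6 between RARRES2-high and FOLR1-high cells (5 and 5 in the main analysis); the 3 between ERBB2-high and RARRES2-high cells then held DEFB1 (3.82 against 0.736 CPM) in place of CXCL14. With 10 CPM added before the ratio, 2 members were past the limit between ERBB2-high and RARRES2-high cells and 4 between ERBB2-high and FOLR1-high cells. A minimum of 5 marker counts per cell and leaving out the cell with the most counts of a member were added after the data were seen. Variance to mean ratios rose without thinning, to 16.7 for CXCL8 in ERBB2-high and 18.4 for CXCL14 in FOLR1-high cells. Thinned to 1000 counts they fell to 4.03 for CXCL14 and 1.83 for DEFB1 in FOLR1-high cells and to 2.25 for CCL2 in RARRES2-high cells, while CXCL8 there rose to 3.18. The platforms have a single library apiece and share their barcodes, but no analysis paired by barcode was run. None of the results is a test. Levels resting on 3 or fewer counts (CCL2, CXCL14 and CCL20 in ERBB2-high cells, DEFB1 in RARRES2-high cells, IL6 in FOLR1-high cells) are limited by depth.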
